A study of Homo sapiens with 10 samples.

Results

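Imprinted genes are expressed mainly or only from the copy inherited from a given parent, under control regions whose DNA methylation differs between the parental copies. The parental pattern is set in the germ line and kept through cell divisions in body tissues. Several of the encoded products act on growth: IGF2 is a fetal growth factor, CDKN1C (p57) inhibits cyclin-dependent kinases, and PLAGL1 (ZAC1) is a zinc finger transcription factor known for halting the cell cycle. Loss of the normal parental pattern is well known in tumours and in growth disorders.

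The genes described here are 10 well-known imprinted genes, chosen by name: H19, IGF2, MEG3, PEG3, PEG10, MEST, SNRPN, NDN, PLAGL1 and CDKN1C. Earlier results of these data were known when they were chosen. They took 11 of the 58735 rows of the count table, since IGF2 was listed under 2 gene identifiers. RNA was measured in A253 cells, an established human line from a squamous carcinoma of a salivary gland, to compare control cells with cells that had lost part of DUSP1, a phosphatase that switches off MAP kinases. The control carried a guide RNA against dTomato, a fluorescent protein. Cl1 and Cl10 had been edited by Cas9 with a pair of guide RNAs in the introns on either side of DUSP1 exon 2, and each was heterozygous (DUSP1-/+) for loss of that exon, with no DUSP1 protein seen by the study. Guide RNAs and Cas9 were delivered with lentiviral vectors and antibiotic selection. Each group had 2 libraries, and each DUSP1-/+ group was a single clone, so the genotype and the founder cell cannot be told apart. Nothing in the labels states that the 2 libraries of a group came from separate cultures, and p-values therefore measure the spread between these libraries, which may be technical. Counts per gene cannot tell the parental copies apart, so every value below is the summed output of all copies.

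Library totals ran from 47016495 to 70986593 counts. DUSP1 had 743 and 635 normalised counts in the control libraries, 304 and 353 in Cl1, and 494 and 415 in Cl10, where normalised counts are counts scaled to the mean effective library size. DUSP1 was lower than in the control, with log2 fold changes of -1.07 ± 0.15 (Cl1, adjusted p = 0.000291) and -0.59 ± 0.13 (Cl10, adjusted p = 0.0113) by edgeR's quasi-likelihood test, where ± on a log2 fold change is its standard error here and below. Summed squamous keratinocyte markers lay between 13650 and 15330 CPM (counts scaled to library size) in all 6 libraries. Leukocyte markers summed to at most 0.338 CPM and salivary acinar markers to at most 0.421 CPM. Endothelial markers summed to between 2.7 and 4.5 CPM in the control, 5.4 and 7.6 in Cl1 and 3.3 and 4.2 in Cl10. Fibroblast markers summed to between 44.6 and 50.9 CPM in the control, 43.4 and 48.0 in Cl1 and 30.3 and 32.2 in Cl10, and 4 of these 6 genes had at most 10 counts in every library. The part of this lower sum in the values of Cl10 was not tested, nor that of the higher endothelial sum in the values of Cl1.

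Among the regulatory sequences of these genes, those of PLAGL1 and H19 are shown because these were the members that differed most between groups. PLAGL1 (chromosome 6, 143940300 to 144064599, minus strand, hg38) has several starts, and RefSeq lists 5 promoter windows of 300 bases for it (GRCh38.p14), each of which covers the bases just before and after a start. Window 3 holds the start that lies beside the noncoding RNA HYMAI, where the paternally expressed transcripts are known to begin. It held 39 CpG dinucleotides, the site of DNA methylation, and 8.71% of 35116 promoter windows of that length held at least as many. The other 4 windows held 31, 3, 3 and 2 CpG, the window of H19 (chromosome 11, 1995166 to 2004552, minus strand, hg38), a long noncoding RNA that neighbours IGF2, held 6, and the median over all windows was 14. This H19 window covers a start at 2001266, inside the annotated gene and not at its upstream end (2004552). Its CpG count therefore describes that start only and not any other start of H19. RefSeq windows matched 6 of the 10 members, in 19 windows that all matched the hg38 letters, and IGF2, PEG3, PEG10 and CDKN1C had no entry. The CpG-rich window 3 and the CpG-poor window 2 of PLAGL1, and the window of H19, are shown on the strand of the gene with CpG in capitals.

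PLAGL1 window 3, chr6:144008210-144008509: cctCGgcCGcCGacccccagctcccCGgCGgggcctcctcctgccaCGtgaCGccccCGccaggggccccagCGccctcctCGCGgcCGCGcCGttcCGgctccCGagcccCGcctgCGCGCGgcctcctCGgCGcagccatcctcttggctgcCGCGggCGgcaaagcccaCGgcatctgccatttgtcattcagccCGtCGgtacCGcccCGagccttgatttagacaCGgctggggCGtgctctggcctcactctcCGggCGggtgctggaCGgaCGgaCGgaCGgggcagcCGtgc

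PLAGL1 window 2, chr6:144055213-144055512: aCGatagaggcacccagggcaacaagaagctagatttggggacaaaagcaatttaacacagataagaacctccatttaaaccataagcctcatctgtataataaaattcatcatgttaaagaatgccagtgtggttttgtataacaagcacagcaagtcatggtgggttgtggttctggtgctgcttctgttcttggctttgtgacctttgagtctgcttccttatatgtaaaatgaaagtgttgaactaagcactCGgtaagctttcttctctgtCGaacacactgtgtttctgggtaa

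H19 window 1, chr11:2001217-2001516: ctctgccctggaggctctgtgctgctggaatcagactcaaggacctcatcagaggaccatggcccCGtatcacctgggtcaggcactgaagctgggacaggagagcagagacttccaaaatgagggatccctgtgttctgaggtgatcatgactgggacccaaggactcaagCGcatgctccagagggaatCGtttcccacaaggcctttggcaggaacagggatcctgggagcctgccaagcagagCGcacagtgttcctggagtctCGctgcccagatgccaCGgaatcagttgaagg

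H19 and MEST also host microRNAs that lie on their own strand, and their mature sequences from RefSeq are given with the seed, bases 2 to 8, in capitals. The count table listed the H19 hairpin gene MIR675 at 0 in all 6 libraries. However, 100% of the exonic bases of MIR675 are shared with H19 on the same strand. How reads on shared bases were assigned is not given, so this 0 cannot be read as absence. Mature microRNAs are not measured by libraries of polyadenylated RNA.

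hsa-miR-675-5p (H19): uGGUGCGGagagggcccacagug

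hsa-miR-675-3p (H19): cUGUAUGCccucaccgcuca

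hsa-miR-335-5p (MEST): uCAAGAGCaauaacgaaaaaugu

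hsa-miR-335-3p (MEST): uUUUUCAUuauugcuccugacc

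Of the 10 genes, PEG10, CDKN1C, MEST and PLAGL1 were well expressed and H19 was lower, at 83 to 462 counts per library. IGF2 was at a trace, and 4 genes were not detectable. SNRPN and NDN, paternally expressed genes of the Prader-Willi region on chromosome 15, had 0 counts in all 6 libraries. MEG3, a maternally expressed noncoding RNA of chromosome 14, had 1 count in control replicate 2 and 0 in the other 5 libraries. PEG3, a paternally expressed zinc finger gene of chromosome 19, had 1 count in Cl1 replicate 1 and 0 in the other 5. These 4 genes stayed under the floor of 3 counts, which corresponded to between 0.0423 and 0.0638 CPM, and no difference between groups was detectable for them at this depth. The floor covers counting error only. For SNRPN, 43.9% of the exonic bases are shared with SNURF and other genes, and for PEG3 50.9%, and how reads on shared bases were assigned is not given in the sources used here. SNURF itself was at 0 in all 6 libraries. Because 52.1% of the SNURF exonic bases are shared in turn with SNRPN and another gene, that 0 does not show where shared reads went. The NDN row shares no exonic base with another gene.

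IGF2 had 13 and 9 counts in the control libraries, 11 and 15 in Cl1, and 6 and 6 in Cl10. The control and Cl1 ranges overlapped, and both Cl10 libraries lay below the other 4 in counts. In Cl1 the log2 fold change was 0.33 ± 0.53 (adjusted p = 0.687, edgeR's quasi-likelihood test), and in the Cl10 comparisons the gene did not pass the filter on low counts. Without Cl1 replicate 2 the value was -0.14 (adjusted p = 0.945, edgeR's quasi-likelihood test). The second IGF2 identifier had 0 counts throughout, and 44.4% of the exonic bases of the first are shared with other annotated genes.

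Per length, PEG10 was the most abundant member. PEG10 is a paternally expressed gene derived from a retrotransposon, with a role in placenta. In the control, it stood at 41.3 ± 4.77 FPKM, counts scaled by exon length and library size (mean ± SD, n = 2). CDKN1C followed at 10.3 ± 0.451 FPKM, MEST at 5.29 ± 0.208, PLAGL1 at 4.67 ± 0.150, H19 at 0.642 ± 0.410 and IGF2 at 0.0251 ± 0.00227. The gap between neighbours in this order was larger than the SD of either gene. That SD does not cover the choice of exon length, here the merged exons of all annotated transcripts. In mean normalised counts the control order differed, with PLAGL1 at 1724, CDKN1C at 1475 and MEST at 1451. In Cl1 PLAGL1 (5.61 ± 0.0144 FPKM) stood above MEST (4.51 ± 0.172 FPKM). In Cl10 PLAGL1 (2.02 ± 0.119 FPKM) stood below MEST (5.07 ± 0.177 FPKM), in the same order as in the control and further apart.

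**Figure D1:**
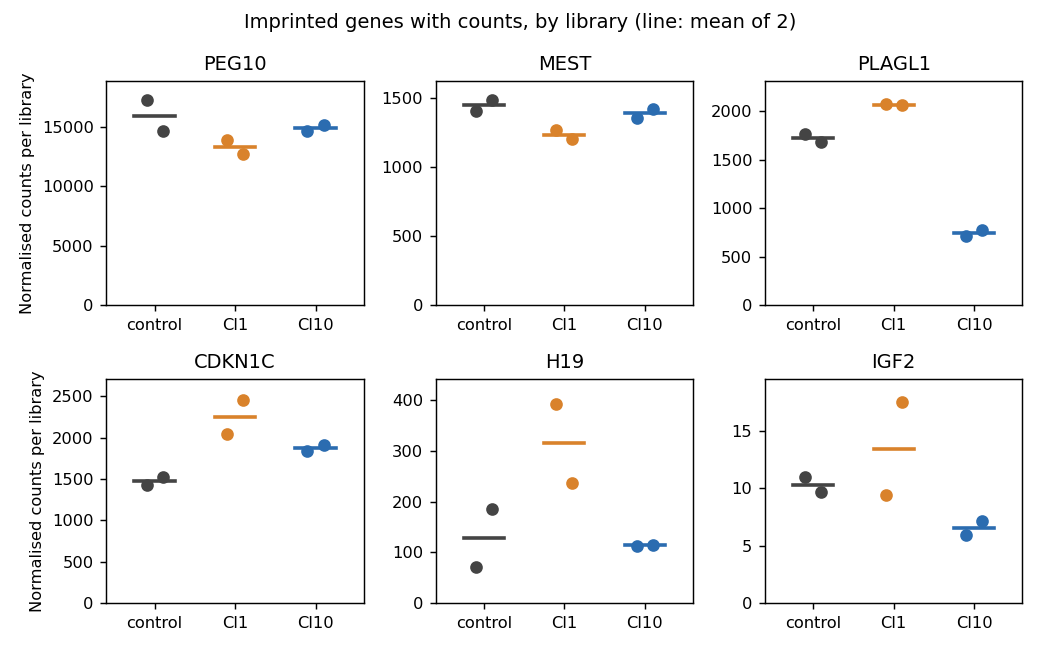
Normalised counts of the 6 members above the floor in each library (points) with the mean of the 2 libraries of a group (lines), on linear axes that start at 0. PLAGL1 is lowest in both Cl10 libraries (713 and 775), CDKN1C is higher in all 4 clone libraries than in the control, and the control libraries of H19 lie apart (70.1 and 186).

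PLAGL1 was lower in Cl10 and not in Cl1. It had 1763 and 1684 normalised counts in the control, 2072 and 2064 in Cl1, and 713 and 775 in Cl10. Both Cl10 libraries were below all other libraries, and both Cl1 libraries were above the control. Against the control, the log2 fold change in Cl10 was -1.21 ± 0.09, a 2.31-fold lower level (adjusted p = 0.000166, edgeR's quasi-likelihood test). In Cl1 it was 0.26 ± 0.11 and did not pass (adjusted p = 0.0870, edgeR's quasi-likelihood test), but it passed in a joint fit over all 6 libraries at 0.26 (adjusted p = 0.0384) and without control replicate 1 at 0.30 (adjusted p = 0.0330). The difference between the clones, tested directly as Cl10 against Cl1, was -1.47 ± 0.08 (adjusted p = 2.41e-08, edgeR's quasi-likelihood test). In bulk RNA, fewer cells that express a gene and less RNA per cell cannot be told apart. HYMAI, the noncoding RNA beside PLAGL1 window 3, had 4 and 0 counts in the control, 5 and 9 in Cl1 and 0 and 0 in Cl10, too few for a comparison. Gene-level counts do not show which of the PLAGL1 promoters was in use.

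The fall of PLAGL1 was also set against its surroundings on chromosome 6. The 50 nearest tested genes, over 11.2 Mb, were at a median of -0.05 on the log2 scale for Cl10 against the control, and 1 of the 50 was lower than PLAGL1. With that median subtracted, the log2 fold change of PLAGL1 was -1.15 (adjusted p = 0.000239, edgeR's quasi-likelihood test).

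The genes whose pattern over the 6 libraries was most like that of PLAGL1, by distance of log2 CPM centred on the control among 19072 genes, were SLC16A3 (0.117), AFAP1 (0.163) and LGALS8-AS1 (0.200). SLC16A3, which encodes a lactate transporter, had 4613 and 4827 normalised counts in the control, 5489 and 5564 in Cl1, and 1929 and 2191 in Cl10. The distance is a description, and the group means of PLAGL1 themselves spanned 1.47 on the log2 CPM scale.

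**Figure D2:**
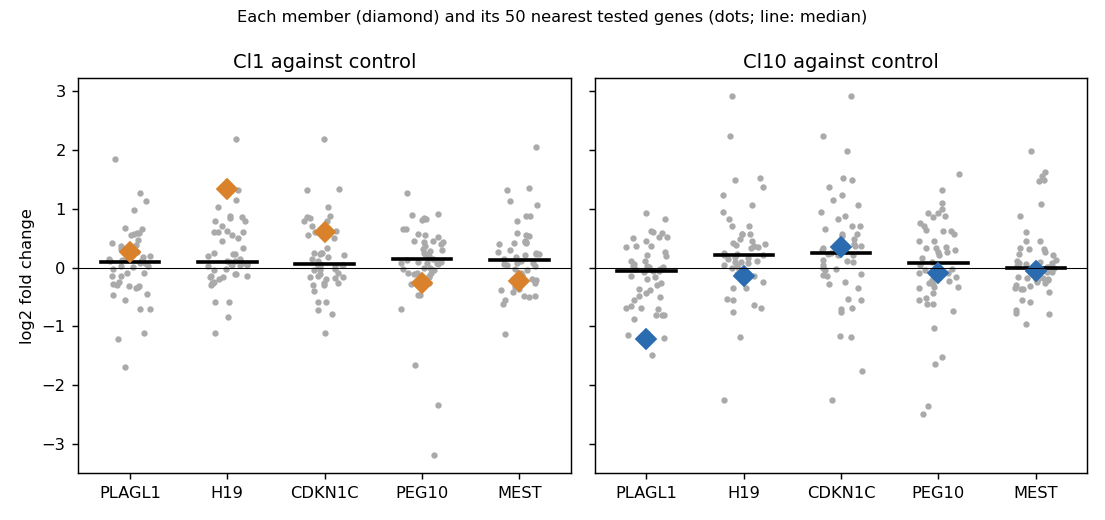
Log2 fold change of 5 members (diamonds) and of the 50 nearest tested genes of each on the same chromosome (dots, with their median as a line), for Cl1 and for Cl10 against the shared control. PLAGL1 in Cl10 has 1 of its 50 neighbours below it, H19 in Cl1 has 1 of its 50 above it, and CDKN1C in Cl10 lies near the median of its neighbours (0.24).

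CDKN1C, the maternally expressed cell cycle inhibitor of chromosome 11 (2883213 to 2885775, minus strand, hg38), was higher in both clones. It had 1429 and 1520 normalised counts in the control, 2038 and 2459 in Cl1, and 1832 and 1913 in Cl10. No clone library overlapped the control, and Cl1 lay above Cl10. CDKN1C rose by 0.61 ± 0.12 on the log2 scale in Cl1 (adjusted p = 0.00294) and by 0.35 ± 0.08 in Cl10 (adjusted p = 0.0133) by edgeR's quasi-likelihood test, both with the same control libraries. For Cl10 against Cl1 it was -0.26 ± 0.08 (adjusted p = 0.0231, edgeR's quasi-likelihood test). None of the 3 differences reached the 2-fold size required for a call. The 50 nearest tested genes had a median of 0.24 in Cl10, with 22 above CDKN1C and 28 below it, and with that median subtracted its log2 fold change was 0.11 (adjusted p = 0.326, edgeR's quasi-likelihood test). In Cl1 the local median was 0.06 and the difference passed after subtraction (0.55, adjusted p = 0.00581, edgeR's quasi-likelihood test). Without Cl1 replicate 2 the Cl1 difference was 0.47 (adjusted p = 0.0632), and without Cl10 replicate 1 or 2 the Cl10 difference was 0.39 or 0.32 (adjusted p = 0.106 and 0.192), by edgeR's quasi-likelihood test. Without Cl1 replicate 2 or Cl10 replicate 1, Cl10 against Cl1 was -0.13 or -0.22 (adjusted p = 0.0705 and 0.110, edgeR's quasi-likelihood test).

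Other genes of the CDKN1C domain, named here after their values were seen, did not share a single direction. KCNQ1OT1, the paternally expressed noncoding RNA that silences the domain in cis, was higher in Cl1 (0.71 ± 0.21, adjusted p = 0.0261) and in Cl10 (0.83 ± 0.22, adjusted p = 0.0206) by edgeR's quasi-likelihood test, although with the local median subtracted the Cl10 value was 0.59 (adjusted p = 0.0687, edgeR's quasi-likelihood test). Its control libraries lay apart (259 and 163 normalised counts), and all clone libraries were above them. PHLDA2, a maternally expressed gene known for limiting placental growth, was higher in Cl1 (0.63 ± 0.14, adjusted p = 0.00699) and stood at -0.01 ± 0.15 in Cl10 (adjusted p = 0.973) by edgeR's quasi-likelihood test. SLC22A18, a maternally expressed transporter gene, was lower in Cl10 (-0.54 ± 0.08, adjusted p = 0.00222) and stood at -0.20 ± 0.11 in Cl1 (adjusted p = 0.210) by edgeR's quasi-likelihood test.

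H19 was higher in Cl1, with replicate libraries that lay apart in the control and, to a lesser degree, in Cl1. It had 70.1 and 186 normalised counts in the control, 394 and 236 in Cl1, and 113 and 115 in Cl10. Both Cl1 libraries were above all others, and both Cl10 libraries lay between the control libraries. The log2 fold change in Cl1 was 1.34 ± 0.35, a 2.53-fold higher level (adjusted p = 0.0140, edgeR's quasi-likelihood test), and for Cl10 against Cl1 it was -1.48 ± 0.22 (adjusted p = 0.000120, edgeR's quasi-likelihood test). For Cl10 against the control it was -0.14 ± 0.41 (adjusted p = 0.805, edgeR's quasi-likelihood test).

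The control libraries of H19 differed 2.65-fold, and 1.29% of 19077 genes differed more between them, against a median ratio of 1.14. The Cl1 libraries differed 1.67-fold, and 5.54% of genes differed more between them, against a median ratio of 1.10. Without control replicate 1 the Cl1 difference was 0.78, under the fold threshold, and without control replicate 2 it was 2.18. Without Cl1 replicate 1 it was 0.91 (adjusted p = 0.0519, edgeR's quasi-likelihood test). DESeq2 gave a log2 fold change of 1.30 for Cl1 with an adjusted p of 0.216. The direction in Cl10 rested on 1 control library: the log2 fold change was -0.71 without control replicate 1 (adjusted p = 0.00297) and 0.70 without control replicate 2 (adjusted p = 0.0172) by edgeR's quasi-likelihood test. The Cl10 against Cl1 difference uses no control library, and it stayed between -1.80 and -1.05 when each library in turn was left out.

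**Figure D3:**
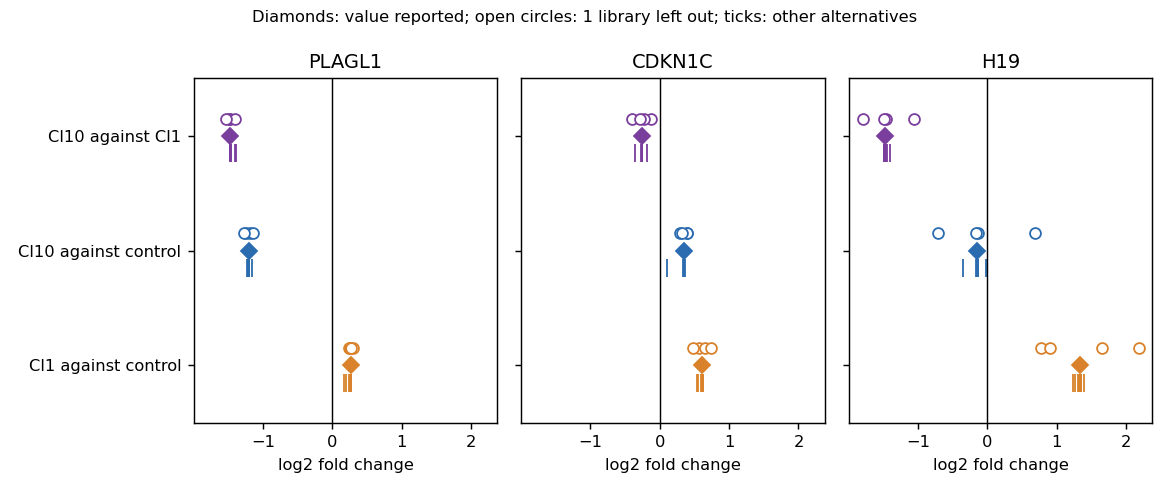
Log2 fold change of PLAGL1, CDKN1C and H19 in the 3 comparisons as reported (diamonds), with 1 library left out (open circles) and under 8 other settings (ticks). The H19 values against the control spread widely with the control library left out (0.78 to 2.18 in Cl1, -0.71 to 0.70 in Cl10), while those of PLAGL1 in Cl10 stay between -1.27 and -1.14.

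PEG10 and MEST, the paternally expressed genes of chromosome 7, differed less than 2-fold. PEG10 had 17200 and 14600 normalised counts in the control, 13860 and 12720 in Cl1, and 14630 and 15150 in Cl10. Its Cl10 libraries lay within the range of the control, and its Cl1 libraries below it. The log2 fold change was -0.26 ± 0.13 in Cl1 (adjusted p = 0.169), -0.09 ± 0.10 in Cl10 (adjusted p = 0.512) and 0.17 ± 0.06 for Cl10 against Cl1 (adjusted p = 0.0449), by edgeR's quasi-likelihood test. These small values turned on single libraries. Without control replicate 2, PEG10 passed lower in Cl1 (-0.37, adjusted p = 0.00944) and in Cl10 (-0.21, adjusted p = 5.30e-06), and without control replicate 1 it was at 0.024 in Cl10 (adjusted p = 0.671), by edgeR's quasi-likelihood test. The Cl10 against Cl1 difference of PEG10 did not pass without Cl1 replicate 2 (0.097) or without Cl10 replicate 1 or 2 (0.20 and 0.15). With the median of the 50 nearest tested genes subtracted, PEG10 passed lower in Cl1 (-0.40, adjusted p = 0.0428, edgeR's quasi-likelihood test). MEST, which encodes a hydrolase-like protein, had 1411 and 1491 normalised counts in the control, 1270 and 1203 in Cl1, and 1358 and 1426 in Cl10. Cl10 overlapped the control and both Cl1 libraries were lower. None of its differences passed (adjusted p between 0.0707 and 0.633, edgeR's quasi-likelihood test), but Cl10 against Cl1 passed without Cl1 replicate 1 (0.21, adjusted p = 0.0137) and with scaling by library size only (0.25, adjusted p = 0.0180). With the local median subtracted, MEST passed lower in Cl1 (-0.36, adjusted p = 0.0355) and higher in Cl10 against Cl1 (0.32, adjusted p = 0.00330), by edgeR's quasi-likelihood test. Exonic bases shared with COPG2 and other genes on the opposite strand made up 27.6% of MEST, and whether the counting used strand is not given in the sources used here.

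**Figure D4:**
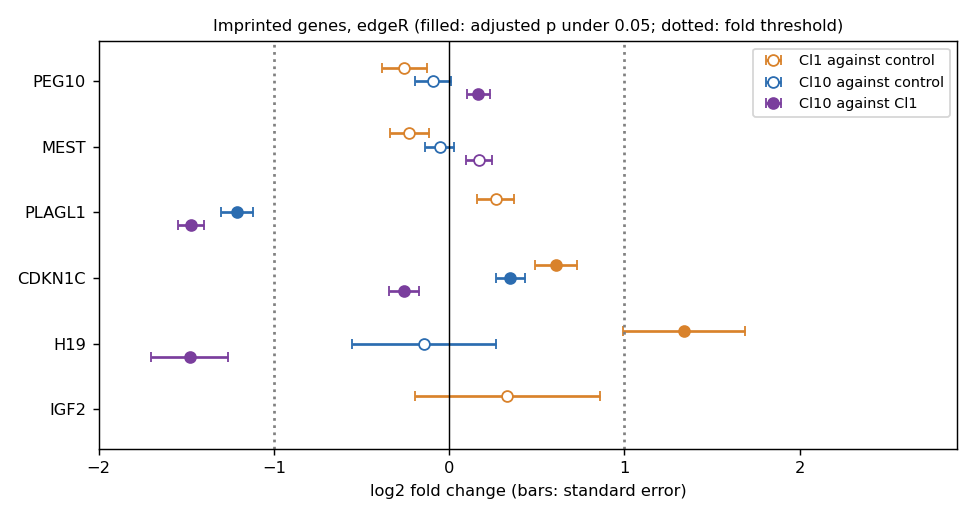
Log2 fold change (points) with its standard error (bars) of the 6 members above the floor for Cl1 and Cl10 against the shared control and for Cl10 against Cl1, filled where the adjusted p was under 0.05 and with dotted lines at a 2-fold difference in each direction. The points beyond those lines are PLAGL1 in Cl10 and against Cl1, H19 in Cl1, and H19 in Cl10 against Cl1.

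A gene counted as called where its adjusted p was under 0.05 with more than a 2-fold difference in either direction, a log2 size of 1. In Cl1 against the control, 6 of the 10 members passed the filter and 1 was called higher (H19) and 0 lower, where 4.27% of all tested genes were called higher and 3.27% lower. In Cl10 against the control, 5 were tested and 1 was called lower (PLAGL1) and 0 higher, against 7.44% lower and 5.98% higher over all genes. In Cl10 against Cl1, 5 were tested and 2 were called lower (PLAGL1 and H19) and 0 higher, against 6.28% lower and 4.47% higher over all genes. By adjusted p alone, 2 members passed higher and 0 lower in Cl1, where 12.4% of all tested genes passed higher and 12.8% lower. In Cl10, 1 passed higher and 1 lower, against 20.6% and 21.8% of all genes, and in Cl10 against Cl1, 1 passed higher and 3 lower, against 24.9% and 24.1%. The median log2 fold change of the tested members was 0.30, -0.09 and -0.26 in these comparisons, beside -0.01, -0.01 and 0.00 over all genes tested. With so few members tested, these shares are a description.

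A list of 54 other imprinted genes, made up of 31 neighbours of the members in their domains and 23 genes from other domains, was described in the same way. Whether these genes, or the members, are imprinted in A253 cells was not tested. Of these, 15 were at or under the floor in every library and 10 of those were at 0 throughout. In Cl1, 31 were tested with 2 higher calls and 0 lower, with a median of 0.04, where 4.27% of all tested genes were called higher and 3.27% lower. In Cl10, 30 were tested with 4 higher calls and 1 lower, with a median of 0.02, against 5.98% higher and 7.44% lower over all genes. For Cl10 against Cl1, 31 were tested with 3 higher calls and 1 lower, with a median of -0.02, against 4.47% higher and 6.28% lower over all genes.

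GRB10, an adaptor that dampens insulin and IGF receptor signalling, was the gene called lower in Cl10. It had 7277 and 6639 normalised counts in the control, 3355 and 3712 in Cl1, and 1977 and 2076 in Cl10. The groups did not overlap, with the log2 fold change at -0.98 ± 0.12 in Cl1 (adjusted p = 9.42e-05) and -1.77 ± 0.09 in Cl10 (adjusted p = 4.83e-05) by edgeR's quasi-likelihood test. Its 50 nearest tested genes had a median of -0.63 in Cl10, and with that subtracted the value was -1.15 (adjusted p = 0.000221, edgeR's quasi-likelihood test).

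DLK1, DIO3, NNAT and CPA4 were the genes called higher in Cl10. DLK1, a Notch ligand relative of the MEG3 domain, had 13.5 and 20.4 normalised counts in the control, 38.4 and 49.1 in Cl1, and 59.8 and 47.8 in Cl10. It was higher in Cl1 (1.37 ± 0.38, adjusted p = 0.0194) and in Cl10 (1.69 ± 0.34, adjusted p = 0.00683) by edgeR's quasi-likelihood test. DIO3, the deiodinase at the other end of that domain, rose from 134 and 118 normalised counts in the control to 372 and 371 in Cl10 (1.56 ± 0.14, adjusted p = 0.000302, edgeR's quasi-likelihood test). In Cl1 it had 194 and 170 normalised counts (0.53 ± 0.19, adjusted p = 0.0620, edgeR's quasi-likelihood test), and 0.57 with the local median subtracted (adjusted p = 0.0494, edgeR's quasi-likelihood test). Both are paternally expressed protein-coding genes, while MEG3, the maternally expressed RNA between them, was not detectable as given above. NNAT, a paternally expressed small membrane protein, was higher in Cl1 (1.26 ± 0.22, adjusted p = 0.00155) and in Cl10 (1.11 ± 0.24, adjusted p = 0.00892) by edgeR's quasi-likelihood test. CPA4, a carboxypeptidase gene near MEST, was higher in Cl10 (1.48 ± 0.16, adjusted p = 0.000647) and stood at 0.11 ± 0.20 in Cl1 (adjusted p = 0.727) by edgeR's quasi-likelihood test.

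Low-count genes made up the remaining calls between the clones. CALCR, the calcitonin receptor, had 22.2 and 14.0 normalised counts in Cl1 and 6.87 and 7.17 in Cl10 (-1.38 ± 0.52, adjusted p = 0.0421, edgeR's quasi-likelihood test). DIRAS3, a small GTPase with growth-limiting activity, had 8.53 and 3.51 normalised counts in Cl1 and 19.6 and 16.7 in Cl10 (1.51 ± 0.55, adjusted p = 0.0343, edgeR's quasi-likelihood test). The control libraries of DIRAS3 averaged 18.1 ± 4.30 normalised counts (SD, n = 2), and both Cl10 libraries lay between them. Against the control, DIRAS3 stood at -1.51 ± 0.56 in Cl1 and did not pass (adjusted p = 0.062, edgeR's quasi-likelihood test).

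**Figure D5:**
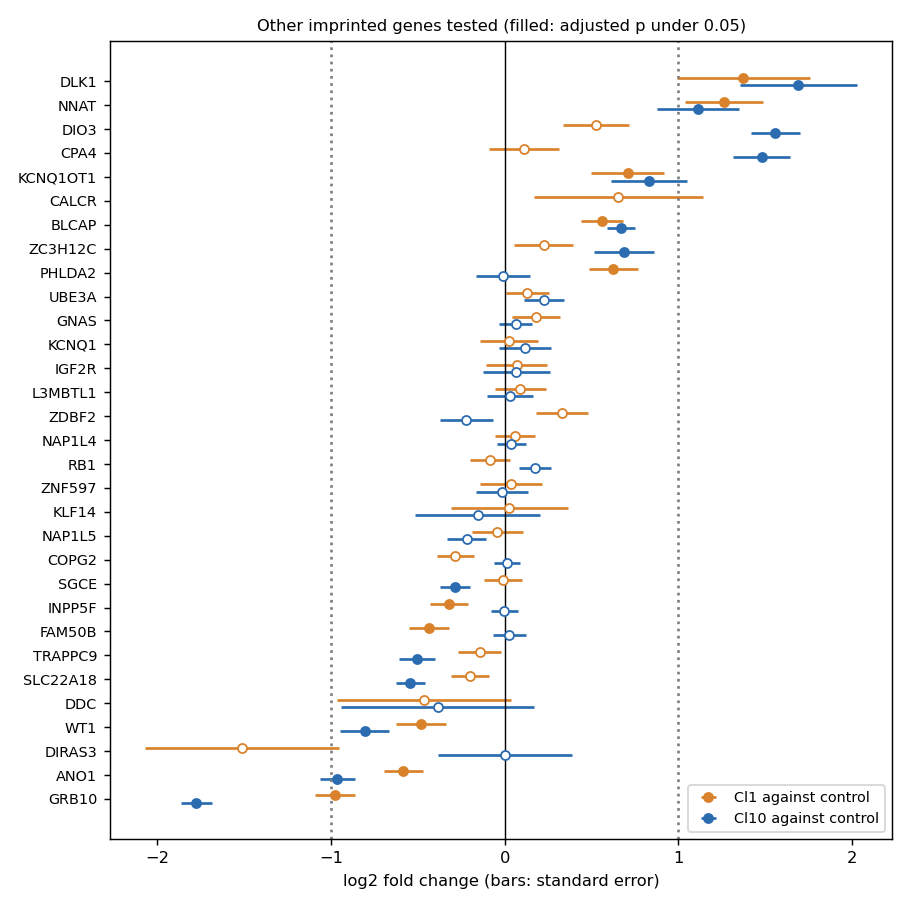
Log2 fold change (points) with its standard error (bars) of the 31 imprinted genes outside the 10 members that were tested, for Cl1 and Cl10 against the shared control, filled where the adjusted p was under 0.05. Most lie within the dotted 2-fold lines, with GRB10 lowest in Cl10 (-1.77) and DLK1 (1.69), DIO3 (1.56), CPA4 (1.48) and NNAT (1.11) beyond the upper line in Cl10. In Cl1, DLK1 (1.37) and NNAT (1.26) lie beyond the upper line and DIRAS3 (-1.51, not filled) beyond the lower one.

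The machinery that keeps imprints was described from a list of 20 genes, with DNA methyltransferases, their cofactor UHRF1, TET enzymes and zinc finger proteins. Of 15 tested, 3 passed higher and 1 lower in Cl1 and 5 higher and 1 lower in Cl10 by edgeR's quasi-likelihood test, with medians of 0.00 and 0.15, where 12.4% and 12.8% of all tested genes passed higher and lower in Cl1 and 20.6% and 21.8% in Cl10. In Cl10 against Cl1, 5 passed higher and 5 lower, with a median of 0.11, where 24.9% and 24.1% of all tested genes did. KHDC3L, a maternal effect gene of the oocyte, was the single call, with 20.3 and 18.3 normalised counts in the control, 3.41 and 7.02 in Cl1 and 15.7 and 10.7 in Cl10 (-1.93 ± 0.56 in Cl1, adjusted p = 0.0224, edgeR's quasi-likelihood test). DNMT1, which copies methylation to the new DNA strand, and UHRF1, which recruits it, were named after their values were seen. DNMT1 was at -0.11 in Cl1 (adjusted p = 0.621) and was higher in Cl10 by 0.51 (adjusted p = 0.00441), and UHRF1 was at 0.26 in Cl1 (adjusted p = 0.239) and was higher in Cl10 by 0.82 (adjusted p = 0.000525), by edgeR's quasi-likelihood test. By the same test, and also named after their values were seen, DNMT3A was lower in Cl10 (-0.30, adjusted p = 0.0280). CTCF and ARID4A, named in the same way, were higher in Cl10 (0.45 and 0.39, adjusted p = 0.00414 and 0.0115, edgeR's quasi-likelihood test). ARID4B was higher in Cl1 (0.49, adjusted p = 0.0136) but stood at 0.11 with the local median subtracted (adjusted p = 0.590), by edgeR's quasi-likelihood test. TET2 was higher in Cl1 (0.63, adjusted p = 0.0163) and in Cl10 (0.71, adjusted p = 0.0225), by edgeR's quasi-likelihood test. TET3 was higher in Cl1 (0.70, adjusted p = 0.00918) and stood at 0.45 in Cl10 (adjusted p = 0.0924), by edgeR's quasi-likelihood test. The control libraries lay apart for TET2 (2308 and 1458 normalised counts) and TET3 (4451 and 2856), and all clone libraries were above them.

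The IGF axis, with receptors, binding proteins and substrates, was described from a list of 15 genes, of which 14 were tested. The calls were 3 higher and 0 lower in Cl1, 2 higher and 2 lower in Cl10, and 2 higher and 3 lower in Cl10 against Cl1. Over all tested genes the called shares were 4.27% higher and 3.27% lower, 5.98% and 7.44%, and 4.47% and 6.28%. IGFBP3, a secreted protein that binds IGF1 and IGF2, had 20530 and 20460 normalised counts in the control, 104200 and 90680 in Cl1, and 41130 and 42900 in Cl10. It was higher in both clones (2.25 ± 0.15, adjusted p = 6.11e-07 in Cl1, and 1.04 ± 0.08, adjusted p = 0.000205 in Cl10, edgeR's quasi-likelihood test), and the Cl10 value was 1.63 with the median of its 50 nearest tested genes (-0.59) subtracted. IGFBP6, a binding protein that prefers IGF2, went the other way, from 36370 and 47250 normalised counts in the control to 23830 and 22800 in Cl1 and 10750 and 10110 in Cl10. It fell by 0.84 on the log2 scale in Cl1 (adjusted p = 0.00150) and by 1.998 in Cl10 (adjusted p = 0.000116) by edgeR's quasi-likelihood test. With the median of its 50 nearest tested genes (-0.45) subtracted, the Cl10 value was -1.54 (adjusted p = 0.000319, edgeR's quasi-likelihood test).

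IGFBP5 was low in the control (9.29 and 11.8 normalised counts) and higher in Cl1 (35.8 and 53.8) and in Cl10 (113 and 83.6), with log2 fold changes of 2.07 ± 0.42 and 3.23 ± 0.32 (adjusted p = 0.00337 and 0.000403, edgeR's quasi-likelihood test). IGFBP1 was called higher in Cl1 (1.00 ± 0.31, adjusted p = 0.0323, edgeR's quasi-likelihood test). IGF2BP3, an RNA-binding protein named for its binding to IGF2 mRNA, was lower in Cl10 (-1.07 ± 0.12, adjusted p = 0.000612, edgeR's quasi-likelihood test), and the median of its 50 nearest tested genes was -1.09, which left 0.02 after subtraction (adjusted p = 0.902, edgeR's quasi-likelihood test). IRS2, a substrate of the insulin and IGF1 receptors, was higher in Cl10 than in Cl1 (1.06 ± 0.07, adjusted p = 1.77e-07, edgeR's quasi-likelihood test) and was at 1.00 ± 0.13 against the control (adjusted p = 0.00140, edgeR's quasi-likelihood test). IGF2 itself stayed at the trace level given above in all 6 libraries.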

How the data were processed

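RNA-seq libraries of polyadenylated RNA from A253 cells were analysed in 3 groups of 2 (control, Cl1 and Cl10). The authors aligned reads to hg38 with HISAT2 and deposited raw counts per gene, made with HTSeq. The submitters' processing notes also name StringTie and DESeq. The annotation, strand setting and rule for shared reads are not given in the sources used here. Groups came from the labels. The SOX2 libraries of the series were not analysed here.

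Counts were tested with edgeR 4.0.16 in R 4.3.3 (filterByExpr, TMM, glmQLFit and glmQLFTest) in 3 comparisons of 4 libraries (Cl1 and Cl10 with the control, and Cl10 with Cl1), with Benjamini-Hochberg adjustment over all 20153, 19875 and 19818 genes tested. The fit was tested on simulated data. Standard errors were derived from the unshrunk log2 fold change and the F statistic, as its size over the root of F. Coordinates and exonic lengths come from GENCODE v44. Alternatives were DESeq2 1.42.0, other normalizations and filters, a joint fit, a replicate block, each library left out, and, for each member, its value less the local median over the 50 nearest tested genes.

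The named genes are the 10 members, called genes of the lists of other imprinted genes (at most 10), imprint maintenance and the IGF axis (at most 6 each), the 3 genes most like PLAGL1, and DUSP1, besides those said to be named after their values were seen. Members and lists were chosen with earlier results of these data known.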

Additional observations from a re-analysis of the deposited data

Results flagged for a closer look

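Of the members tested in both clones, 4 differed in their effect between the clones, as tested by Cl10 against Cl1 with edgeR's quasi-likelihood test. Over all genes tested in that comparison, 24.9% passed higher and 24.1% lower, so such a difference was common and not particular to these members. The difference (effect in Cl10 minus effect in Cl1, log2) was -1.47 for PLAGL1 and -1.48 for H19. It was -0.26 for CDKN1C, which was higher than the control in both clones. It was 0.17 for PEG10, which passed against the control in neither clone. For PEG10 the difference did not pass in 4 of 8 other settings, and for CDKN1C in 3 of 8.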

How the results depend on the processing

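Depth and 2 libraries per group limit these results: 4 members were at or under the floor, and with a library left out the lone library of its group is assumed to vary like the others. PLAGL1 in Cl10 and between the clones, and H19 between the clones, passed in all 8 other settings and in all 4 fits with a library left out. With a library left out, the log2 fold change changed sign for H19 in Cl10 (-0.71 to 0.70, positive without control replicate 2), for PEG10 in Cl10 (-0.21 to 0.024, positive without control replicate 1) and for IGF2 in Cl1 (-0.14 to 0.75, negative without Cl1 replicate 2), and the cause was not tested. Members called higher in Cl1 were 0 by DESeq2 (against 1), and 0 to 1 with a library left out. By adjusted p alone, members passing higher were 2 in Cl1, 1 in Cl10 and 1 in Cl10 against Cl1. Over all tested genes, 12.4% passed higher and 12.8% lower in Cl1, and 20.6% and 21.8% in Cl10. In Cl10 against Cl1 these shares were 24.9% and 24.1%. The same shares stand beside the counts by adjusted p alone of the other imprinted genes, of which 31, 30 and 31 were tested. Of the 54 other imprinted genes, those called higher in Cl1 were 1 by DESeq2 (against 2), 1 to 3 with a library left out and 5 by adjusted p alone. Those called lower in Cl1 (0) were 1 with library size only, with no filter and with the replicate block, 0 to 1 with a library left out and 5 by adjusted p alone. In Cl10, 7 were higher and 6 lower by adjusted p alone (against 4 and 1), with 2 lower after subtraction of the local median and 1 to 2 with a library left out. In Cl10 against Cl1, 8 were higher and 8 lower by adjusted p alone (against 3 and 1), 1 to 3 were higher with a library left out, and lower calls were 0 with library size only, at least 10 counts in every library, DESeq2 or the joint fit, and 0 to 1 with a library left out.

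Groups share replicate numbers, but the labels do not say that a number marks a shared culture or day. Deviations of same-numbered libraries from their group means correlated at -0.07 (control and Cl1), -0.02 (control and Cl10) and 0.01 (Cl1 and Cl10) over 20582 genes. The replicate block, with the number as an added term, gave 1 member called higher in Cl1, 1 lower in Cl10 and 2 lower in Cl10 against Cl1, as without it.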
